A study of Mus musculus with 20 samples.

Results

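The cytosolic ribosomal protein genes are 84 protein-coding rows of a table of estimated counts for 46517 mouse genes. They were chosen by symbol: large-subunit (Rpl) and small-subunit (Rps) names, the 3 acidic stalk proteins Rplp0, Rplp1 and Rplp2, and Rpsa. Counting the stalk apart, 49 belong to the large subunit and 32 to the small subunit, while 5 rows whose symbol matched but which the annotation lists as pseudogenes were left out. The rule used names only and no measured value, but it was set with earlier results of these data known. Of the 84, 81 passed the filter on low counts. The other 3 are Rpl3l, Rpl10l and Rpl39l, known as paralogs restricted to muscle or testis, and their mean levels over all libraries were 0.157, 0.00611 and 0.0764 CPM per kb, that is, counts scaled to the same library size (CPM) and divided by transcript length.

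Each cytosolic ribosome carries 1 copy of nearly every ribosomal protein, so these mRNAs are made in large amounts and in near-matched proportions. Their transcripts usually start with a cytidine followed by an uninterrupted run of pyrimidines, the 5′ terminal oligopyrimidine (TOP) motif, through which mTOR and LARP1 set their translation and stability. Their mRNAs are short, lie in nearly every cell type including glia, and have left many processed pseudogenes in mammalian genomes.

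RNA was sequenced from white matter of Zdhhc9 knockout and wild-type mice. Zdhhc9 encodes a palmitoyltransferase, and the sample labels call the mutants knockout, while the design text of the series says knockdown. The 4 groups were wild-type corpus callosum (5 libraries), knockout corpus callosum (6), wild-type optic nerve (4) and knockout optic nerve (5). Brains and nerves were frozen, the callosum was cut out of frozen coronal sections, and all libraries came from the same stranded mRNA preparation. Mice were anaesthetised with isoflurane before dissection, and no age, sex or other treatment is given. Whether libraries that carry the same number in both tracts came from 1 mouse is also not stated. All p-values rest on the spread between libraries that the labels list as separate samples.

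Library totals ranged from 15401130 to 26095622 estimated counts. Zdhhc9 stood at 184 ± 18.2 CPM in wild-type and 47.9 ± 5.34 CPM in knockout callosum, and at 136 ± 15.5 and 42.5 ± 7.29 CPM in wild-type and knockout optic nerve (mean ± SD, n = 5, 6, 4 and 5), with no overlap between genotypes and log2 fold changes of -1.95 (SE 0.099, adjusted p = 1.80e-06, edgeR) in callosum and -1.70 (SE 0.13, adjusted p = 0.000544) in optic nerve. The tract labels were checked against cell markers. All 8 myelin markers were detected in both tracts, all 8 neuronal markers were lower in optic nerve in both genotypes, and all 5 fibroblast and meningeal markers were higher there. Callosum libraries carry numbers of 2 digits or of 6 to 7 digits, and the labels do not say what this stands for; values by number format are given where they bear on a result.

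Sequence at the annotated start sites differed between the members. Shown are 25 bases, 10 before and 15 from the RefSeq start on (GRCm38.p6), for the genes with the largest rises in optic nerve named below that have an entry, followed by Rpl5 and Rps15, which did not pass in either genotype. Capitals mark runs of 5 or more pyrimidines. Rpl22l1 also passed in neither genotype, and its window holds such a run (chr3:28805498-28805522, plus strand, gcgcaagcccgTTCTCTTCCCacgg).
Rpl39, chrX:37085208-37085232, minus strand: gctccgCCTCTagcgaCTTCTTCTa
Rps12, chr10:23787195-23787219, minus strand: tcatgcggccaccgccggCCTTTTC
Rpl35, chr2:39005117-39005141, minus strand: ccgCCCTTTCCTCTTTCTCTCgaac
Rps27, chr3:90213634-90213658, minus strand: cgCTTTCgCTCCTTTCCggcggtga
Rps9, chr7:3704031-3704055, plus strand: cttgTCTCTCTTTgtctcgggcctg
Rpl41, chr10:128549154-128549178, minus strand: gggccggctcggaagtgacgacacc
Rpl5, chr5:107900518-107900542, plus strand: cgtcgcttgcgtgctggtggtgcta
Rps15, chr10:80292421-80292445, plus strand: cagagctcgcgataactgcgcaagc
Start windows were held for 64 of the 84 genes, in 76 windows. Within 20 bases on each side of the start, a run of at least 8 pyrimidines on the sense strand stood in 40.8% of their windows and in 16.05% of all 32851 windows. The letters CTTTC stood in 25% of their windows and in 5.49% of all windows, and CTTCC in 23.7% and 8.81%. On the other strand CTTTC stood in 5.26% and 4.86%. GGAAG, the core of ETS factor sites, was searched on both strands over the whole 300 bases, where it can overlap CTTCC, and stood in 93.4% of their windows and 71.4% of all windows. A match is a description of the letters only, and a window without a match says only that these letters are not in it. RefSeq starts can also lie away from the gene starts of GENCODE M21, so the letters depend on the start annotated. The Rps15 window ends at 80292445, before the GENCODE gene start at 80292453. The Rpl41, Rps12, Rpl35 and Rpl39 windows lie inside their genes, whose minus-strand starts are at 128549305, 23787275, 39005624 and 37085402. The Rps9, Rpl5 and Rpl22l1 windows also lie inside their genes, whose plus-strand starts are at 3703993, 107900502 and 28805436. The Rps27 window spans its gene start at 90213651.

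Processed copies of these genes bear on the counts, so rows that match a member were counted; adding them to the member was chosen after results of these data had been seen. Rows of the table outside the 84 whose transcript matched a member's coding sequence at 95% identity or more over at least 80% of its length numbered 469, of which 453 are pseudogenes and 14 are annotated as protein-coding. Of the 84 members, 76 had such a copy. In 59 members the copies held under 5% of the counts of member and copies together, but in 6 they held over 50%: Rpl5 (93.4%), Rpl12 (92.5%), Rpl27 (84.2%), Rpl10 (83.7%), Rpl27a (64.5%) and Rps23 (63.7%). Below are the first 60 coding bases of Rpl5 (gene at chr5:107900502-107909005, plus strand, GRCm38) and Gm15500 (chr7:114705217-114706235, minus strand), which match over all 891 coding bases, and bases 87 to 146 of the coding sequence of Rpl35 (chr2:39001580-39005624, minus strand) and Gm2000 (chr1:156366040-156366484, plus strand), which differ at 1 position over 369 bases. Capitals mark the difference.
Rpl5: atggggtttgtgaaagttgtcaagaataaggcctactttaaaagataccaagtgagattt
Gm15500: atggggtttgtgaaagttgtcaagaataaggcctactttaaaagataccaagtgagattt
Rpl35: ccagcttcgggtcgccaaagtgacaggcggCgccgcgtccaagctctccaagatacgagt
Gm2000: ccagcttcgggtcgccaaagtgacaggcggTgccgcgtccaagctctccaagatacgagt
Both pairs are as annotated in GENCODE M21. Reads from stretches with the same letters in both rows cannot be assigned to 1 of the rows. Counts of these members are therefore uncertain, and for named members values with the copies added are given where they end or make a call in the tissue contrasts or move a called value by over 1.5 times. Copies held 14.15% to 14.22% of the counts of members and copies together in the 4 callosum libraries with 2-digit numbers, and 10.79% to 11.98% in the other 7. Paralogs that are members themselves are further apart. The coding sequence of Rps27l matched that of Rps27 at 76.2% identity over 252 bases, with 18 differences in the first 60, shown here in capitals.
Rps27 (chr3:90212522-90213651, minus strand): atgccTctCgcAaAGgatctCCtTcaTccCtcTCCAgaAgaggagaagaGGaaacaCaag
Rps27l (chr9:66946086-66949516, plus strand): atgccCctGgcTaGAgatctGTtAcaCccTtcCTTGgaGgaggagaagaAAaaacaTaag

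The members held 1.15% to 1.50% of the library's counts in knockout callosum, 1.35% to 1.82% in wild-type callosum, 1.63% to 1.91% in knockout optic nerve and 1.71% to 1.94% in wild-type optic nerve. Group means were 1.32% ± 0.130, 1.51% ± 0.190, 1.802% ± 0.105 and 1.802% ± 0.104 (SD, n = 6, 5, 5 and 4). WT_CCg_7198587 was the highest of the callosum at 1.82%, within the optic nerve range, and KO_CCg_719856 was the lowest. Leaving WT_CCg_7198587 aside, every callosum library lay below every optic nerve library.

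**Figure D1:**
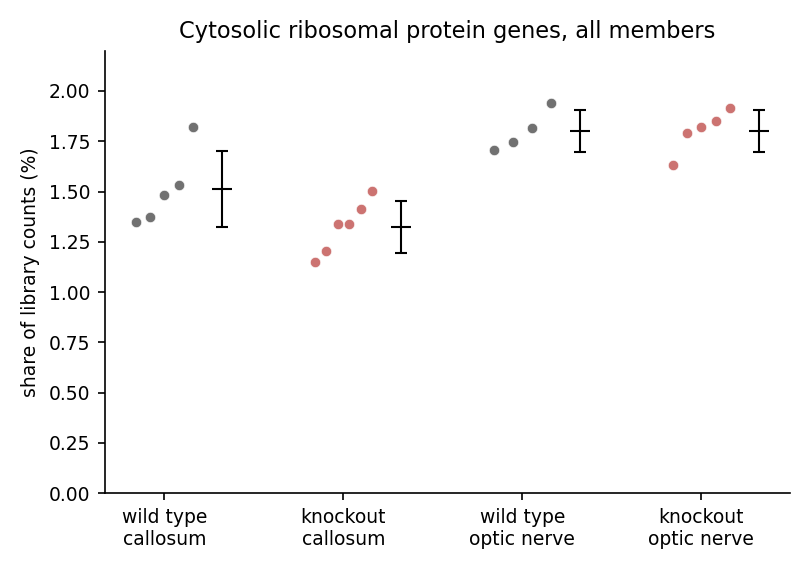
Share of each library's estimated counts held by the 84 cytosolic ribosomal protein genes, in percent; points are libraries, sorted by value within a group, and bars are mean and SD. Callosum libraries lie between 1.15% and 1.82%, optic nerve libraries between 1.63% and 1.94%.

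Per kilobase of the median protein-coding transcript, Rpl13a stood highest over all libraries at 968 CPM per kb, followed by the stalk gene Rplp1 at 896, Rpl3, which shapes the peptidyl transferase centre, at 603, Rpl41, the shortest ribosomal protein, at 575, and Rps29 at 567.7. The order rests on the annotated length: with the longest protein-coding transcript in place of the median, Rpl13a dropped to rank 5 and Rpl3 to rank 12. The neighbours Rpl41 (478 ± 89.4 CPM per kb in wild-type callosum, SD, n = 5) and Rps29 (512 ± 103) did not differ beyond their spread. Among the tested members the lowest were Rpl12 at 10.1, Rpl5 at 15.6, Rpl27 at 25.8, Rps20 at 27.8 and the paralog Rpl7l1 at 33.9 CPM per kb. The first 3 of these are the members with the largest shares at copies, and Rps20 is divided by an annotated transcript of 3706 bases, so these low values depend on the assignment of counts and on the length used.

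In wild-type mice the ribosomal protein genes were mostly higher in optic nerve than in callosum, by small amounts of the same sign. By edgeR's quasi-likelihood test at a Benjamini-Hochberg adjusted p under 0.05 over all 16440 genes tested, 46 of the 81 were higher and 0 were lower, where 25.3% of all genes tested were higher and 26% were lower. By DESeq2 48 were higher and 0 lower, where 25.8% and 27% of all genes were. At an unadjusted p under 0.05 edgeR gave 58 and 0, where 27.7% and 28.6% of all genes passed. The median log2 fold change of the members was 0.31, against -0.026 over all genes, and single members ran from -0.15 to 0.66. In 30 of the 81, every optic nerve library stood above every callosum library, where 22.1% of all genes did. Large-subunit genes (26 of 46 higher, median 0.30), small-subunit genes (18 of 32, median 0.31) and stalk genes (2 of 3, median 0.34) had like shares. In dissected tissue, more cells of a type and more RNA per cell cannot be told apart.

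In knockout mice 73 of the 81 were higher in optic nerve and 0 were lower (edgeR), where 31.9% of all genes tested were higher and 31% were lower. The median was 0.54 log2 units against -0.00085 over all genes, and members ran from -0.26 to 1.07. Every optic nerve library stood above every callosum library in 61 of the 81, where 23.2% of all genes did. By subunit, 39 of 46 large-subunit, 31 of 32 small-subunit and all 3 stalk genes passed, with medians of 0.47, 0.56 and 0.66. Of the members, 45 passed in both genotypes, which is 97.8% of the wild-type and 61.6% of the knockout calls, 28 passed in knockout only and 1, Rpl7l1, in wild type only. These counts do not show that the tissue difference depends on genotype, which is tested apart below.

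**Figure D2:**
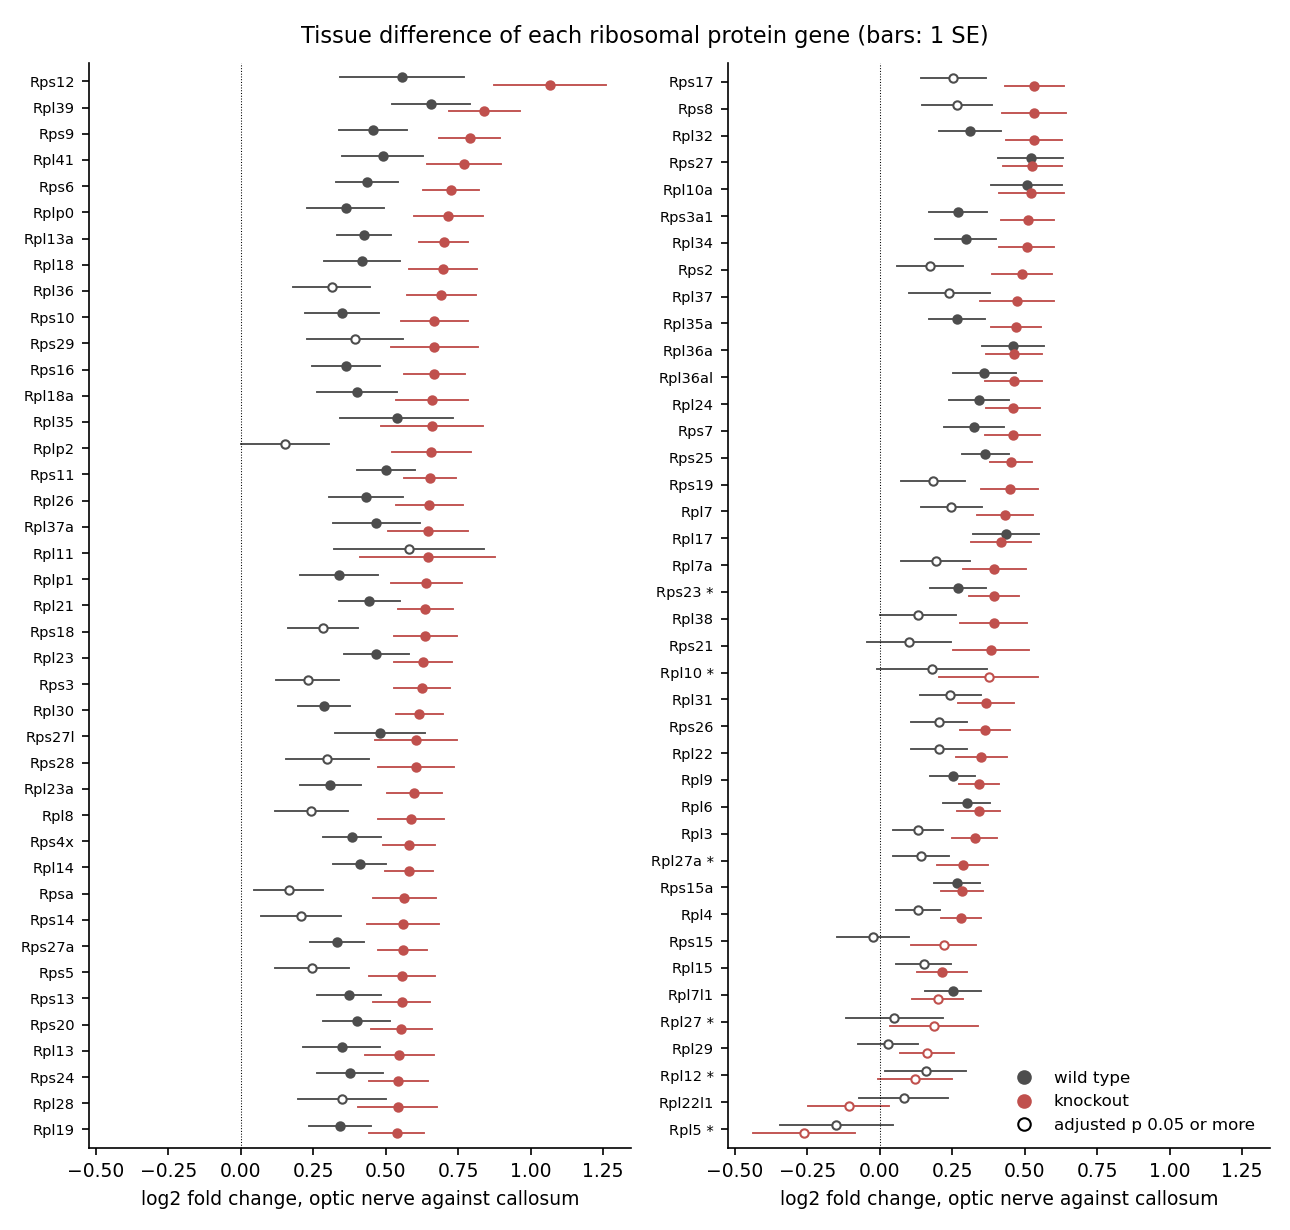
Log2 fold change of each of the 81 tested genes, optic nerve against callosum, in wild type (grey) and knockout (red), ordered by the knockout value; bars are 1 SE, filled points passed at an adjusted p under 0.05, and asterisks mark the 6 genes with over 50% of counts at copies. Of the filled points, 46 are wild type and 73 knockout, all to the right of 0, and Rpl5 lies lowest.

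Rpl39, a short protein lining the exit tunnel of the large subunit, showed the largest rise of those that passed in wild type. Its levels were 45.7, 54.5, 53.2, 60.8 and 70.3 CPM in wild-type callosum and 87.8, 85.2, 93.8 and 92.2 CPM in wild-type optic nerve. Knockout callosum ran from 32.3 over a median of 48.7 to 57.4 CPM, and knockout optic nerve held 85.5, 88.1, 82.8, 73.1 and 90.0 CPM. All optic nerve libraries were above all callosum libraries of their genotype, a difference of 0.66 log2 units (SE 0.14, 1.58-fold, adjusted p = 0.000406, edgeR) in wild type and 0.84 (SE 0.12, 1.79-fold, adjusted p = 6.01e-06) in knockout. Copies held 6.75% of its counts. With copies added the values were 0.42 (adjusted p = 0.00117) and 0.67 (adjusted p = 1.72e-06).

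Rps12, a small-subunit protein, had the largest rise in knockout. Wild-type callosum libraries held 143, 126, 99.7, 133 and 166 CPM and wild-type optic nerve libraries 166, 184, 200 and 235 CPM. Knockout callosum ran from 52.8 over a median of 96.0 to 136 CPM, with KO_CCg_719856 the lowest, and knockout optic nerve held 215, 195, 188, 148 and 267 CPM. The knockout groups were apart, while in wild type the highest callosum library, WT_CCg_7198587, and the lowest optic nerve library met at 166 CPM. The difference was 0.56 (SE 0.21, 1.47-fold, adjusted p = 0.0345, edgeR) in wild type and 1.07 (SE 0.19, 2.10-fold, adjusted p = 7.07e-05) in knockout. Copies of Rps12 held 41.4% of its counts, most of them at Rps12-ps3. With copies added the values were 0.57 (SE 0.12) and 0.95 (SE 0.11). The wild-type call was lost among callosum libraries with 6- to 7-digit numbers only (0.56), and without WT_CCg_30, WT_CCg_685232, WT_ON_717652 or WT_ON_719857 (0.47 to 0.55).

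Rps27, a zinc-finger protein of the small subunit, held 121, 112, 107, 126 and 140 CPM in wild-type callosum and 167, 174, 190 and 165 CPM in wild-type optic nerve. In knockout it ran from 86.4 over a median of 112 to 129 CPM in callosum and stood at 168, 144, 169, 143 and 159 CPM in optic nerve. No optic nerve library overlapped the callosum of its genotype, and the rise was nearly the same in both: 0.52 (SE 0.11, 1.43-fold, adjusted p = 0.000588, edgeR) in wild type and 0.53 (SE 0.10, 1.44-fold, adjusted p = 0.000138) in knockout. Its paralog Rps27l, a p53-responsive gene, was far lower, at 16.3 ± 3.75 CPM in wild-type callosum and 22.6 ± 1.46 in wild-type optic nerve (SD, n = 5 and 4), and also rose, by 0.48 (SE 0.16, adjusted p = 0.0136) in wild type and 0.61 (SE 0.14, adjusted p = 0.000888) in knockout.

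Rpl35, at the exit tunnel, rose by 0.54 in wild type (SE 0.19, 1.45-fold, adjusted p = 0.0257, edgeR) and by 0.66 in knockout (SE 0.18, 1.58-fold, adjusted p = 0.00276). Its callosum levels split by number format: 43.3 and 45.4 CPM in the libraries WT_CCg_28 and WT_CCg_30, but 65.3, 69.5 and 82.4 CPM in the other 3. Wild-type optic nerve held 82.7, 99.1, 88.9 and 85.0 CPM, above all wild-type callosum libraries. Knockout callosum ran from 37.3 over a median of 59.4 to 74.1 CPM and knockout optic nerve held 95.6, 95.9, 92.8, 68.6 and 97.3 CPM, with 1 optic nerve library inside the callosum range. The wild-type call was lost without the 2-digit libraries (0.29), without WT_CCg_28 (0.44), without WT_CCg_30 (0.45) and without WT_ON_701297 (0.51). Gm2000, the copy shown above with 1 differing base, made 0.11 (SE 0.24, adjusted p = 0.717) in wild type, and Rpl35 with its copies added rose by 0.36 (SE 0.097, adjusted p = 0.00390).

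Rps9 and Rpl41 were the other members with the largest rises in knockout. Rps9, a small-subunit protein with no copy found, held 311, 306, 241, 315 and 340 CPM in wild-type callosum and 369, 410, 438 and 443 CPM in wild-type optic nerve. In knockout it ran from 186 over a median of 242 to 279 CPM in callosum and held 449, 445, 390, 369 and 440 CPM in optic nerve. Both pairs of groups were apart, by 0.46 (SE 0.12, adjusted p = 0.00266, edgeR) in wild type and 0.79 (SE 0.11, 1.73-fold, adjusted p = 1.90e-06) in knockout. Rpl41 rose by 0.49 (SE 0.14, adjusted p = 0.00609) and 0.77 (SE 0.13, adjusted p = 2.41e-05), although in wild type WT_CCg_7198587 at 323 CPM overlapped the lowest optic nerve library at 321 CPM and the wild-type call was lost among 6- to 7-digit callosum libraries.

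**Figure D3:**
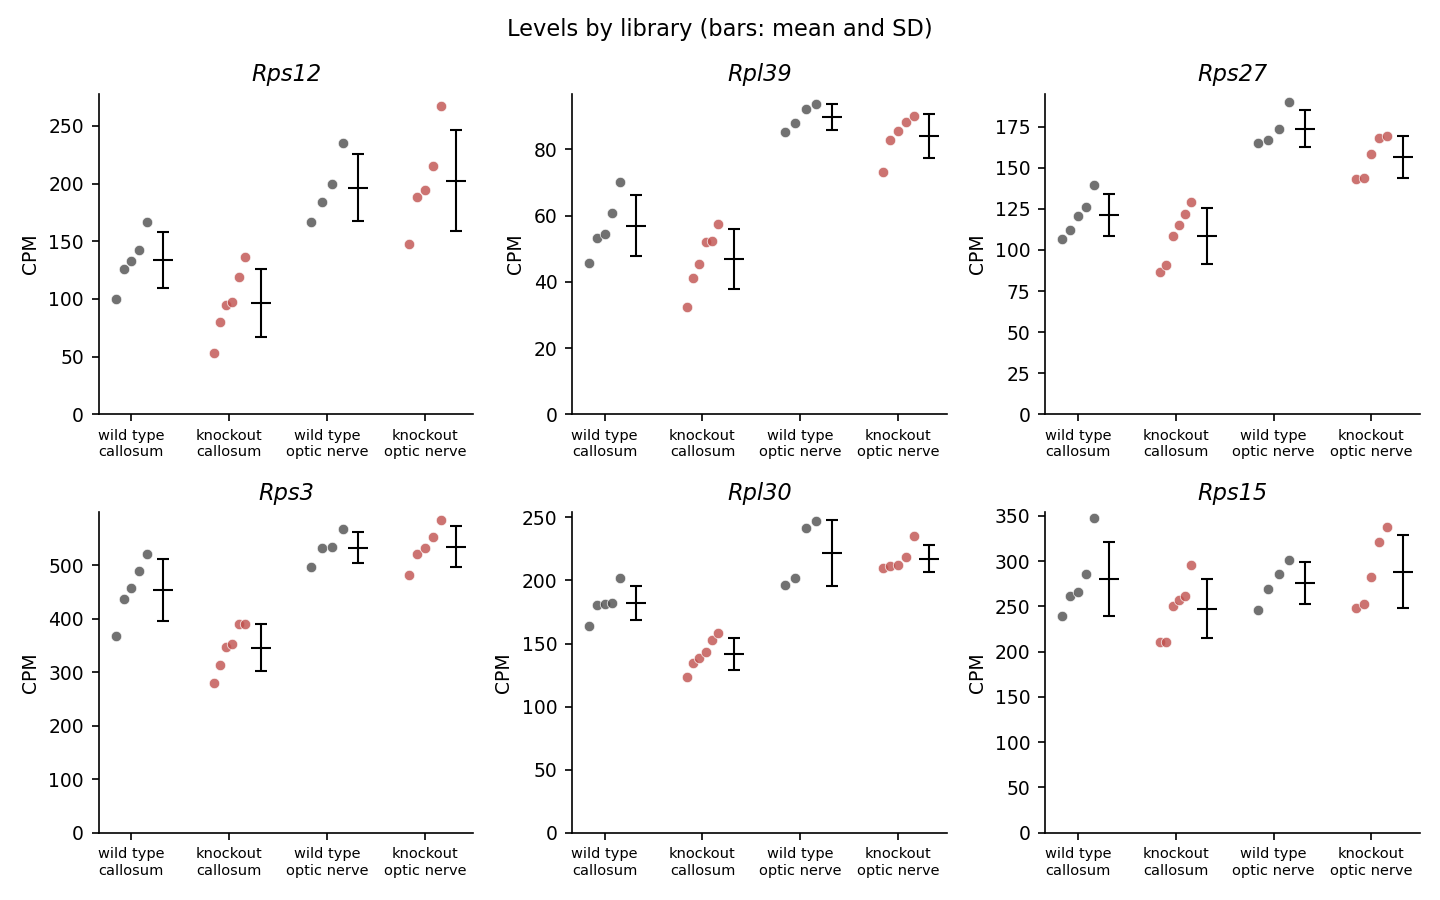
Levels of 6 ribosomal protein genes in CPM by library; points are libraries of wild type (grey) and knockout (red), sorted by value within a group, and bars are mean and SD. Optic nerve lies above callosum for Rpl39 and Rps27 in both genotypes, the wild-type groups of Rps12 meet at 166 CPM, and the 4 groups of Rps15 overlap between 210 and 347 CPM.

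Of the stalk proteins, which recruit elongation factors to the ribosome, 2 of 3 passed in wild type and 3 of 3 in knockout. Rplp0 rose by 0.36 (SE 0.13, adjusted p = 0.0275, edgeR) and Rplp1 by 0.34 (SE 0.14, adjusted p = 0.0423) in wild type, and by 0.72 and 0.64 in knockout. The Rplp1 call in wild type was lost without KO_CCg_693452, WT_CCg_28, WT_CCg_30, WT_CCg_685232, WT_ON_717652 or WT_ON_719857, and the Rplp0 call without WT_CCg_685232 or WT_ON_717652. Among 6- to 7-digit callosum libraries Rplp0 (0.37) and Rplp1 (0.30) lost their wild-type calls as well. Rplp2 passed in knockout, with 0.66 (SE 0.14, adjusted p = 0.000305), and made 0.15 (SE 0.15, adjusted p = 0.425) in wild type. Rpsa, a small-subunit protein also known as a laminin receptor, had the same form: 0.17 (SE 0.12, adjusted p = 0.264) in wild type and 0.56 (SE 0.11, adjusted p = 0.000125) in knockout. Neither gene passed the test of the difference between genotypes given below.

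Rps6, the S6 kinase substrate, rose in both genotypes, from 255 ± 33.9 to 344 ± 11.8 CPM in wild type (SD, n = 5 and 4) and from 203 ± 23.0 to 336 ± 33.4 CPM in knockout (n = 6 and 5), that is by 0.44 (adjusted p = 0.00193, edgeR) and 0.73 (adjusted p = 1.93e-06). Rps4x, encoded on the X chromosome, also rose in both, by 0.38 (adjusted p = 0.00313) and 0.58 (adjusted p = 1.30e-05). Rps19, Rps14 and Rpl3 passed in knockout and not in wild type, although Rps14 also passed in wild type without WT_CCg_7198587. Rps19, the gene most often mutated in Diamond-Blackfan anaemia, made 0.18 (SE 0.11) in wild type and 0.45 (SE 0.099) in knockout, and Rpl3 made 0.13 (SE 0.086) and 0.33 (SE 0.078). Rpl11, which binds 5S ribosomal RNA together with Rpl5, made 0.58 (SE 0.26, adjusted p = 0.0671) and 0.65 (SE 0.23, adjusted p = 0.0208). Its callosum levels spread widely (111 ± 35.0 CPM in wild type, SD, n = 5) and split by number format. Unscaled counts were 979 and 1563 in WT_CCg_28 and WT_CCg_30, against 3207 to 3603 in the other wild-type callosum libraries. In KO_CCg_27 and KO_CCg_29 they were 1204 and 1137, against 2317 to 3692 in the other knockout callosum libraries. Library totals differed less, from 15401130 to 19531571 in these libraries and from 21917519 to 25375187 in the other callosum libraries. Copies held 34.2% of the Rpl11 counts, and with copies added Rpl11 rose by 0.30 in wild type (adjusted p = 0.00803) and 0.51 in knockout (adjusted p = 1.38e-05). By limma-voom it made 0.78 (adjusted p = 0.00688) and 0.40 (adjusted p = 0.0837). Its knockout call was lost without KO_CCg_27 or KO_CCg_719856, and it passed in wild type without KO_CCg_29, WT_CCg_685232 or WT_CCg_7198587.

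In no paralog pair with both partners tested did 1 pass as higher and the other as lower. Pairs with Rpl3l, Rpl10l and Rpl39l were not compared, as these paralogs did not pass the filter on low counts. Rpl36a and Rpl36al both rose, by 0.46 and 0.36 in wild type and by 0.46 in knockout for both, and the wild-type call of Rpl36al was lost among 6- to 7-digit callosum libraries (0.32). Rpl22, at 130 ± 15.8 CPM in wild-type callosum, made 0.20 (SE 0.096, adjusted p = 0.0843, edgeR) in wild type and rose by 0.35 (SE 0.087, adjusted p = 0.00154) in knockout, whereas its paralog Rpl22l1, at 26.98 ± 3.87 CPM, made 0.083 (SE 0.15, adjusted p = 0.686) and -0.11 (SE 0.14, adjusted p = 0.521). Rpl7 made 0.25 (SE 0.11, adjusted p = 0.0578) and rose by 0.43 (SE 0.095, adjusted p = 0.000554). Rpl7l1 rose by 0.25 (SE 0.097, adjusted p = 0.0357) in wild type and made 0.20 (SE 0.088, adjusted p = 0.0527) in knockout. Calls this near the threshold turned with single libraries: Rpl7l1 in wild type was lost without WT_CCg_685232, WT_ON_700858 or WT_ON_717652. In wild type Rpl22 passed without KO_CCg_719856 or WT_CCg_28, and Rpl7 passed without any 1 of KO_CCg_27, KO_CCg_29, KO_CCg_719856, WT_CCg_28, WT_CCg_30, WT_CCg_717652, WT_ON_701297 and WT_ON_719857. In knockout Rpl7l1 passed without KO_CCg_27, KO_ON_693452, WT_CCg_28 or WT_CCg_685232. Differences between partners were not tested.

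The 7 genes that passed in neither genotype were Rpl5, Rpl10, Rpl12, Rpl22l1, Rpl27, Rpl29 and Rps15. Of these, 4 are among the 6 members with over 50% of counts at copies. Rpl5 held 33.6, 26.4, 25.7, 18.3 and 16.9 CPM in wild-type callosum and 22.7, 22.7, 26.0 and 15.5 CPM in wild-type optic nerve, with the ranges overlapping. Its own row made -0.15 (SE 0.19, adjusted p = 0.552, edgeR) in wild type and -0.26 (SE 0.18, adjusted p = 0.205) in knockout, the lowest values of any member. Gm15500, with the same coding letters, made 0.22 (SE 0.11, adjusted p = 0.0886) and 0.44 (SE 0.095, adjusted p = 0.000442), and the sum of Rpl5 and its copies 0.20 (SE 0.10, adjusted p = 0.128) and 0.39 (SE 0.094, adjusted p = 0.00112).

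Rpl10, which joins the large subunit last, held 54.6, 54.2, 34.6, 42.9 and 51.6 CPM in wild-type callosum and 57.4, 44.7, 55.1 and 58.4 CPM in wild-type optic nerve. Its row made 0.18 (SE 0.19, adjusted p = 0.452, edgeR), and 0.38 (adjusted p = 0.0621) in knockout, where it passed without KO_CCg_693452, KO_CCg_717651, KO_ON_717651 or KO_ON_719856. In wild type Rpl10-ps3, with identical coding letters and annotated as protein-coding, rose by 0.67 (SE 0.094, adjusted p = 6.12e-06). Summed, they rose by 0.58 (SE 0.099, adjusted p = 5.27e-05) in wild type and 0.79 (SE 0.089, adjusted p = 2.08e-07) in knockout. Rpl12 and Rpl27 likewise passed once their copies were added, at 0.31 in wild type for both and at 0.51 and 0.46 in knockout. With copies added for every member, 50 of 81 passed in wild type and 77 in knockout, 49 of them in both, and the 3 that passed in neither were Rpl22l1, Rpl29 and Rps15. In that fit 4164 of all 16364 genes tested were higher and 4258 lower in wild type, and 5254 higher and 5070 lower in knockout.

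**Figure D4:**
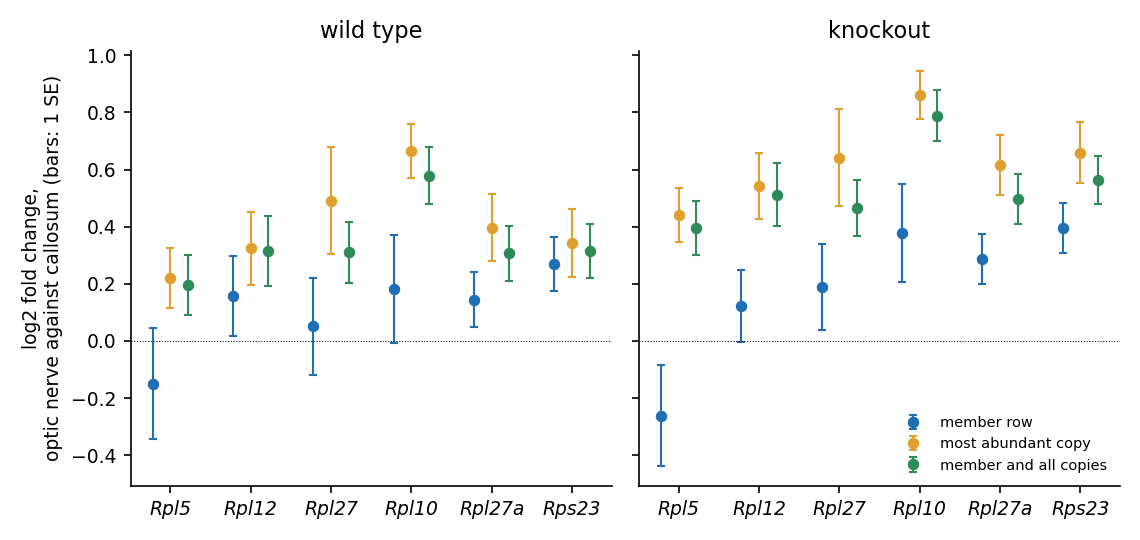
Log2 fold change, optic nerve against callosum, in wild type (left) and knockout (right) for the 6 genes with over 50% of counts at copies: the gene's own row (blue), its most abundant copy (orange) and the gene with all copies added (green); bars are 1 SE. The gene's own row lies lowest in each, and the summed values lie between 0.20 and 0.58 in wild type and between 0.39 and 0.79 in knockout.

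Rps15, a protein of the small-subunit head, had 0.0112% of its counts at copies. It stood at 262, 266, 239, 286 and 347 CPM in wild-type callosum and 246, 270, 286 and 301 CPM in wild-type optic nerve. Knockout callosum ran from 210 over a median of 253 to 296 CPM and knockout optic nerve held 321, 283, 252, 248 and 338 CPM. All 4 groups overlapped, with -0.023 (SE 0.13, adjusted p = 0.893, edgeR) in wild type and 0.22 (SE 0.11, adjusted p = 0.0956) in knockout. Among the 56 tested members with under 5% of counts at copies, 32 passed in wild type and 52 in knockout, with medians of 0.29 and 0.54. Of all genes tested, 25.3% were higher in wild type and 31.9% in knockout.

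Cell type markers also moved with the tissue contrast. Summed levels of the 5 fibroblast and meningeal markers (Col1a1, Col1a2, Dcn, Lum, Igfbp2) were 25.4 to 54.6 CPM in callosum and 1438 to 2828 CPM in optic nerve, and all 5 rose in both genotypes. The 6 microglial markers all rose, from 236 to 343 CPM summed in callosum to 582 to 962 CPM in optic nerve. The 8 neuronal markers all fell, from 888 to 3903 CPM summed to 117 to 328 CPM. Of 5 astrocyte markers, 2 rose and 1 fell in wild type, and 3 rose and 1 fell in knockout, with summed levels of 2671 to 3830 CPM in callosum and 7229 to 10761 CPM in optic nerve. Gfap, the intermediate filament of astrocytes, rose by 2.96 in wild type, and Slc1a2, a glutamate transporter, fell by 2.38. Of 3 markers of oligodendrocyte precursors, 1 rose and 1 fell in wild type, and 2 rose and 1 fell in knockout. Of 6 listed nuclear-retained RNAs only Snhg11 was tested, and it fell by 2.14 in wild type and fell by 2.49 in knockout. The 3 endothelial markers all rose, and the 5 markers of striatal projection neurons all fell, in both genotypes. Of 8 myelin markers, 0 rose and 1 fell in wild type, and 6 rose and 0 fell in knockout. No group had a summed level of 0 for any of these lists, and the part of cell makeup in the members' difference was not tested. Nuclear protein-coding mRNAs outside the ribosome with a median transcript under 700 bases rose in 280 and fell in 174 of 966 tested in wild type (median 0.099). In knockout 385 rose and 207 fell (median 0.16). These mRNAs were not matched to the members in length, as members such as Rpl3 (816 bases) and Rpsa (1768.5 bases) exceed that limit.

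Other genes of the translation machinery were counted the same way. Of 78 mitochondrial ribosomal protein genes, 12 rose and 9 fell in wild type (median 0.011), and 20 rose and 12 fell in knockout (median 0.040). Among ribosomal proteins without an Rp symbol, Fau rose by 0.42 and Rack1 by 0.29 in wild type and by 0.72 and 0.54 in knockout. Of 16 tested genes known for a TOP motif outside the ribosome, 5 rose and 2 fell in wild type, and 10 rose and 2 fell in knockout. Eef1a1, the main elongation factor, rose by 0.38 (adjusted p = 0.00173, edgeR) and 0.54 (adjusted p = 1.26e-05), and Hnrnpa1 fell by 0.59 (adjusted p = 0.000142) and 0.64 (adjusted p = 1.12e-05).

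Of 21 other initiation and elongation factors, 1 rose and 3 fell in wild type, and 5 rose and 6 fell in knockout. Eef1a2, the elongation factor of neurons and muscle, fell by 2.25 log2 units in wild type (adjusted p = 5.23e-05, edgeR) and fell by 2.54 in knockout (adjusted p = 2.68e-06). Of the ribosome assembly and RNA polymerase I genes, 0 of 20 rose and 7 fell in wild type, and 2 rose and 8 fell in knockout. Among them Rrn3, an RNA polymerase I initiation factor, fell by 0.39 (adjusted p = 0.000546) and 0.53 (adjusted p = 5.00e-06), and Wdr12 fell by 0.52 and 0.72. Of 14 genes of mTOR and TOP control, 2 rose and 6 fell in wild type, and 3 rose and 6 fell in knockout. They include Mycn, which fell by 2.55 (adjusted p = 2.21e-08) and 2.13 (adjusted p = 2.42e-08).

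Between genotypes in callosum no ribosomal protein gene passed. Of the 81 tested, 0 were higher and 0 lower in knockout by edgeR at an adjusted p under 0.05, where 0.0129% of all 15519 genes tested were higher and 0.0258% lower. The signs were nearly uniform: 80 of 81 had a log2 fold change below 0, as did 52.5% of all genes, and the median was -0.22 (range -0.50 to 0.0042) against -0.013 over all genes. At an unadjusted p under 0.05, 31 were lower and 0 higher, where 6.89% of all genes tested were lower and 4.81% higher. Small-subunit genes (median -0.26), stalk genes (-0.29) and large-subunit genes (-0.20) lay on the same side. By DESeq2 1 member, Rpl30, was lower, where 0.793% of all genes were. By limma-voom with sample quality weights 16 were lower and 0 higher, in a fit that called 8.45% of all genes lower and 9.5% higher.

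Rpl30, a large-subunit protein, was the only member with every knockout library below every wild-type library, as 0.696% of all genes tested were. Wild-type callosum held 180, 182, 164, 181 and 202 CPM, and knockout callosum ran from 123 over a median of 141 to 159 CPM. The difference was -0.37 log2 units (SE 0.089, 0.774-fold, adjusted p = 0.238, edgeR), the smallest p of the members. Rps3, which lines the mRNA entry channel, held 489, 457, 368, 437 and 520 CPM in wild type and ran from 280 over a median of 350 to 391 CPM in knockout, overlapping at 1 wild-type library (-0.40, SE 0.12, adjusted p = 0.288). Rps27a, whose product starts as a fusion with ubiquitin, held 214, 219, 164, 187 and 211 CPM in wild type and ran from 141 over a median of 158 to 175 CPM in knockout (-0.33, SE 0.098, adjusted p = 0.297), and here too 1 wild-type library lay within the knockout range. Rpl10 made -0.50 (SE 0.16, adjusted p = 0.345), and -0.28 (SE 0.11) with its copies added. Rpl10a, at 0.0042 (SE 0.0985, adjusted p = 0.991), was the 1 member above 0.

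The size of these values depended on single libraries. Without WT_CCg_7198587 the median was -0.12, 75 of 81 were below 0 and 6 were lower at an unadjusted p under 0.05. That last count was 10 without KO_CCg_719856, 12 without KO_CCg_27, 11 without WT_CCg_30, 17 without KO_CCg_693452 and 20 without WT_CCg_717652. It was 23 without KO_CCg_693451 or WT_CCg_28, 30 without KO_CCg_29, 44 without WT_CCg_685232 and 50 without KO_CCg_717651. Over all genes, in either direction, 1816 of 15519 were under that p with every library kept. That number was 1858 without WT_CCg_7198587 and 2264 without KO_CCg_717651. It ran from 1033 without WT_CCg_30 to 3527 without KO_CCg_29. Within the libraries numbered with 2 digits the median was -0.22, and within those numbered with 6 to 7 digits it was -0.23. With copies added the median was -0.24, and 81 of 81 were below 0.

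Marker lists leaned to one side in this contrast, with 0 of their genes passing. All 8 myelin markers had negative values in knockout against wild-type callosum (median -0.50, summed levels 33836 to 66122 CPM against 53334 to 89422 CPM in wild type), and all 8 neuronal markers had positive values (median 0.65, 1003 to 3903 against 888 to 2746 CPM). All 6 microglial markers had negative values (median -0.32), and their summed levels did not overlap, at 236 to 295 CPM in knockout and 307 to 343 CPM in wild type. The 5 fibroblast and meningeal markers (median -0.23) and the 3 precursor markers (median -0.26) were also all negative, and 4 of 5 astrocyte markers were. All 5 markers of striatal projection neurons (median 0.87) and all 13 mitochondrially encoded genes (median 0.13) had positive values. With the mean myelin marker level as a covariate, the members' median was -0.13 and 1 was lower at an unadjusted p under 0.05. In that fit 524 of all 15519 genes tested were under that p in either direction, against 1816 without a covariate. With the neuronal marker level as a covariate, the members' median was -0.22 and 25 were lower at that p, where 1306 of all genes were under it. The part of cell makeup in these values was not tested beyond these fits. Short mRNAs outside the ribosome had a median of -0.062, with 565 of 901 below 0. All 16 tested TOP genes outside the ribosome were below 0 (median -0.14), with 0 passing, and the mitochondrial ribosomal protein genes had a median of -0.015.

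Between genotypes in optic nerve no ribosomal protein gene passed. Of the 81 members, 0 were higher and 0 lower in knockout by edgeR, where 0% of all 15556 genes tested were higher and 0.0129% lower. The median was -0.019 against 0.012 over all genes, with 34 members above 0 and 47 below, and the groups overlapped in all 81. At an unadjusted p under 0.05, 0 were higher and 1 lower, where 2.83% and 2.64% of all genes were, and DESeq2 passed 0. The smallest p-values belonged to Rps27l at -0.21 (SE 0.086, adjusted p = 0.845), Rps27 at -0.17 (SE 0.083) and Rpl10 at -0.32 (SE 0.17). On the other side Rpl36 made 0.15 (SE 0.11), Rpl41 0.15 (SE 0.11) and Rplp2 0.13 (SE 0.13).

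The difference of the knockout effect between the tracts was tested directly in 1 fit over the 4 groups. Of the 81 members 0 passed in either direction by edgeR, where 0% of the 16440 genes tested were higher and 0% were lower. At an unadjusted p under 0.05, 8 members were higher and 0 lower, where 4.46% of all genes were higher and 2.37% lower. When 1 library was left out that count ran from 2, without KO_CCg_719856 or without WT_ON_701297, to 24, without WT_CCg_685232. In these fits, in that order, 757, 848 and 1895 of all genes were under that p in either direction. With every library kept 1123 were. DESeq2 and limma-voom also passed 0. In 76 of 81 the knockout value lay higher in optic nerve than in callosum, as in 54% of all genes, with a median of 0.20 against 0.028 over all genes. Rps3 (0.40, SE 0.14), Rpl30 (0.33, SE 0.12) and Rpsa (0.40, SE 0.16) had the smallest p-values, each at an adjusted p of 0.725, and Rpl22l1 (-0.19, SE 0.21), Rpl5 (-0.11, SE 0.26) and Rpl7l1 (-0.051, SE 0.13) lay on the other side. The median was 0.12 without KO_CCg_27 or without KO_CCg_719856, and 0.14 without WT_CCg_7198587. This contrast, both tissue contrasts and the callosum contrast share callosum libraries, so their values are given side by side and are not separate evidence.

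**Figure D5:**
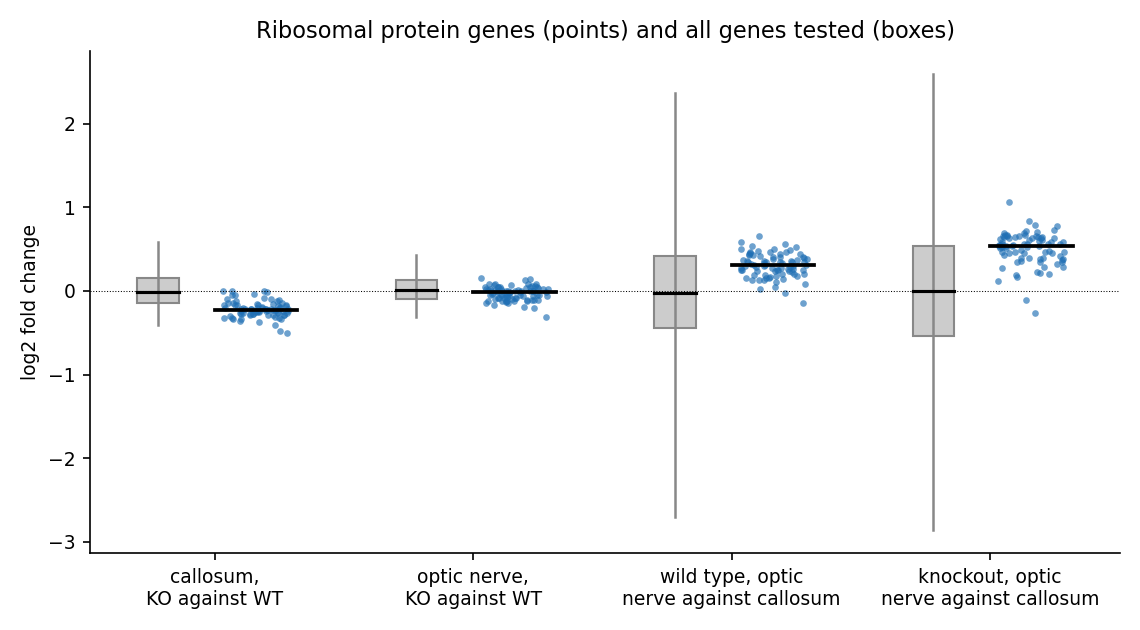
Log2 fold changes in 4 comparisons: points are the 81 tested ribosomal protein genes with their median as a line, and boxes are all genes tested (quartiles, median, and 5th to 95th percentile as a line). Member medians are -0.22 in callosum and -0.019 in optic nerve for knockout against wild type, and 0.31 and 0.54 for optic nerve against callosum in wild type and knockout.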

How the data were processed

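Messenger RNA was sequenced in 20 libraries with a stranded kit, per the labels' protocols. The authors deposited estimated counts per gene, unscaled, with mm10 named as the build in the submitters' processing notes. The deposited table is named as kallisto gene counts. For the program version and the annotation behind it, nothing was given in the labels. Gene identifiers were matched without version to GENCODE M21 (GRCm38), 46005 of 46517 with a symbol.

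Counts were rounded, filtered with filterByExpr (minimum count 10, minimum total 15), scaled by TMM and fitted with the edgeR 4.0.16 quasi-likelihood test in R 4.3.3. Genotypes were fitted within each tract, and tissue contrasts and the difference of effects over all 20 libraries in 4 groups; p-values were adjusted over all genes tested. CPM values use the TMM factors of the 20-library fit, and each SE is the size of the log2 fold change over the square root of F. Copies were found with BLAST 2.17.0. Adding copies and restricting tissue contrasts by number format were chosen after seeing the data. Promoter windows are from RefSeq GRCm38.p6.

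Genes were named by a rule: per comparison the 4 largest rises and falls that passed, filled to 3 with the smallest p; the 5 highest and 5 lowest per length; a list of well-known members and paralogs; and up to 2 genes per other list. One gene of these other lists is not reported here. The members and lists were chosen with earlier results of these data known. The alternatives were DESeq2 1.42.0 and limma 3.58.1, other scaling, filters, subsets, covariates, copies added and leaving out each library; the fits were tested on simulated data.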

Additional observations from a re-analysis of the deposited data

Results flagged for a closer look

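Libraries that stood apart from the rest of their group were looked for in 148 sets of values, the levels of the ribosomal protein genes named above and their joint share of counts, group by group. Only 4 sets held such a library, fewer than the roughly 1 in 20 that chance gives. Rpl12 stood at 15.9 CPM in WT_CCg_7198587, against 10.9 to 11.5 CPM in the other 4. Rpl35 stood at 68.6 CPM in KO_ON_717651, against 92.8 to 97.3 CPM in the others. Rps14, a small-subunit protein, stood at 297.6 CPM in KO_CCg_717651, against 197 to 233 CPM in the other 5. Rps6 stood at 327 CPM in WT_ON_700858, against 348 to 352 CPM in the other 3.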

How the results depend on the processing

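Under the alternatives run, the members that passed in the tissue contrasts stayed within 1.5 times 46 and 73, except with the block named below. Leaving out 1 library gave 33 to 60 in wild type and 70 to 76 in knockout. In wild type, all genes that were higher numbered 3874 of 16613 where 33 members passed and 4047 of 16393 where 60 did. In knockout they numbered 4869 of 16394 where 70 members passed and 5305 of 16390 where 76 did. Where tools gave other counts in callosum, DESeq2 called 1 member and 0.793% of all genes lower, while limma-voom called 16 members and 8.45% of all genes lower. The labels do not say what a number shared by both tracts marks. Deviations of the 4 same-numbered pairs over all genes tested had correlations of -0.22 to 0.19, and differently numbered pairs had -0.34 to 0.33. The numbers were not used as pairs, and 4 such correlations cannot decide whether a number marks 1 mouse. It is also not stated whether the similar numbers of WT_CCg_7198587 and WT_ON_719857 mark 1 mouse. Their correlation was 0.092 over all genes tested and 0.58 over the members, where same-numbered pairs had -0.54 to 0.24. A replicate block over the 3 shared knockout numbers gave 38 members against 49 without it on the same 6 libraries, and as a random effect 48 in wild type and 73 in knockout. On those 6 libraries 3625 of all 15783 genes tested were higher with the block and 3848 without it. The knockout calls of Rplp2, Rps19, Rpl11 and Rpl36a were lost with the block only. Those of Rpl3, Rpsa, Rps14 and Rpl36al were lost on these libraries with and without it. Without the 3 members of highest count, the share was 1.64% in both optic nerve groups.

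Some named genes changed sign. Rpl10a in callosum was -0.047 with copies added, -0.0044 and -0.074 with the myelin or neuron covariate, -0.014 with number format as covariate, -0.071 in 2-digit libraries, -0.020 with upper-quartile factors, and -0.039 to 0.058 when 1 library was left out. Rpl5 was 0.20 (wild type) and 0.39 (knockout) with copies added, 0.20 for the difference of effects, 0.097 in wild type with 6- to 7-digit callosum libraries, and -0.25 to 0.016 in wild type when 1 library was left out. Rps15 in wild type was 0.014, 0.0048 and 0.0050 (1 CPM filter, wild type alone, no filter) and -0.075 to 0.066 by library left out. Rpl27 in knockout was -0.013 with the block, -0.017 without it and -0.046 without lettered numbers, and -0.039 to 0.17 in wild type by library left out. Rpl22l1 in knockout was 0.032 and 0.021 with and without the block. Rpl7l1 for the difference of effects was 0.044 by limma-voom and -0.12 to 0.0090 by library left out.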
